A study of Mus musculus with 9 samples.

Results

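The proteasome genes of the mouse heart were followed across 9 hearts, as every row of the deposited count table whose symbol starts with Psma, Psmb, Psmc, Psmd, Psme, Psmf or Psmg and a digit. The rule took 49 of 23457 rows. These comprised 14 subunits of the 20S core, 17 of the 19S cap, 5 immunoproteasome genes, 7 assembly chaperones and 3 genes of the other activators and the inhibitor PI31. The last 3 rows were the testis subunit Psma8, the thymus subunit Psmb11 and Psmc3ip, a partner of a cap ATPase that is not itself a proteasome subunit. Poly(A) RNA had been sequenced from 4 hearts of adult mice labelled as germline Parkin knockouts (KO) and 5 hearts of wild-type adult mice (WT), all on the C57BL/6J background. Parkin is a ubiquitin ligase, and a germline deletion is carried by every cell type of the heart. RNA came from the apex of the ventricles per the protocol, whereas the tissue field names the whole heart. The mouse hearts accompanied a study of Parkin deficiency in fly hearts.

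The proteasome degrades proteins that carry ubiquitin chains. Its barrel-shaped 20S core holds a ring of alpha subunits at each end and rings of beta subunits between them, of which Psmb5, Psmb6 and Psmb7 carry the proteolytic sites, and the 19S cap binds, unfolds and feeds in the substrate. Under interferon, cells build an immunoproteasome in which Psmb8, Psmb9 and Psmb10 replace Psmb5, Psmb6 and Psmb7, and the 11S activator of Psme1 and Psme2 can take the place of the cap. In heart muscle the proteasome turns over contractile proteins and removes damaged ones, and Parkin marks proteins of damaged mitochondria with ubiquitin.

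Assigned reads numbered 11637206 to 15777844 per KO heart and 4415183 to 20827699 per WT heart. Reads of mitochondrially encoded genes made up 10.04 to 15.4% of the total in KO hearts and 32.6 to 58.2% in WT hearts. All 8 cardiomyocyte markers were detected, and their summed level was 68280 to 77900 CPM (read counts scaled to a common library size after TMM normalisation) in KO hearts and 53950 to 59280 CPM in WT hearts. That sum was carried by Myh6, a myosin heavy chain, with means of 41900 CPM in KO hearts and 28590 CPM in WT hearts. Of the 8 markers, 3 were called higher and 1, Pln, a regulator of the calcium pump, lower (-1.43, adjusted p = 4.59e-06), and with GC and length trends removed 1 was higher and 2 lower. The summed level of 12 leukocyte markers, 217.7 to 274.5 CPM in KO hearts and 189.5 to 273.9 CPM in WT hearts, overlapped. Of the 11 with enough reads to test, 3 were called higher and 3 lower. With GC and length trends removed 0 were higher and 4 lower. Over all genes, 26.2% were called higher and 25.2% lower, and 18.6% and 19.5% with the trends removed. Markers of skeletal muscle were low and summed to 9.82 to 22.8 CPM in KO hearts and 1.04 to 5.46 CPM in WT hearts, without overlap, and the 2 of 5 with enough reads to test were higher. The groups also differed in how expression followed base composition. Across all tested genes, log2 expression relative to each gene's mean over all hearts was set against GC content. It changed by 0.17 to 0.65 per 10 points of GC content in KO hearts and by -0.40 to -0.19 in WT hearts. These slopes are centred on the hearts as a whole, so they show the difference between the groups, not the slope of either group alone. The fold change of each called member is therefore given with a second value from a fit in which trends with GC content and transcript length were removed from every heart. The part of these differences between groups in the results was not tested. In bulk RNA, fewer cells of a type and less RNA per cell cannot be told apart, and since nothing in the labels says more than that the hearts are separate samples, the p-values measure the spread between these samples.

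Proteasome genes as a whole took up a similar part of the nuclear-encoded reads in both groups. Mitochondrially encoded reads, 10.04 to 15.4% of the total in KO hearts and 32.6 to 58.2% in WT hearts, are left out of that part. Of all reads, the part of the proteasome genes was higher in every KO heart than in every WT heart. They received 27872 to 47002 reads per KO heart and 5396 to 44602 per WT heart, which is 0.307% ± 0.0209 of nuclear-encoded reads in KO hearts (SD, n = 4) and 0.308% ± 0.0188 in WT hearts (SD, n = 5). The ranges, 0.283 to 0.334% in KO hearts and 0.285 to 0.331% in WT hearts, overlapped. Within the family, the genes moved apart. Of 48 members with enough reads to test, 19 (39.6%) were higher and 10 (20.8%) lower in KO hearts at an adjusted p under 0.05 (edgeR quasi-likelihood test, Benjamini-Hochberg adjustment over all 12640 genes tested), and 19 were not called. Across all genes tested, 51.4% were called, 26.2% as higher and 25.2% as lower, so calls were frequent throughout the transcriptome. The median log2 fold change was 0.08 over the members and -0.01 over all genes. With GC and length trends removed, 17 members (35.4%) were higher and 10 (20.8%) lower, with a median of 0.20, against 18.6% and 19.5% of all genes, 38.1% in either direction. The calls of 14 higher and 7 lower members were shared by both fits, and no member was called in opposite directions. A change of at least 2-fold was seen in 8 members (16.7%) that were higher and 2 (4.17%) that were lower, against 7.83% and 10.1% of all genes. In the fit with both trends removed, 2 members (4.17%) were at least 2-fold higher and 3 (6.25%) at least 2-fold lower, against 3.08% and 6.31% of all genes. Of the 29 called members, 25 were called in each of the 9 fits that left out 1 heart.

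Members of both directions were also seen when the scaled values of single hearts, from the same reads, were compared without a test. The CPM of all KO hearts was above that of all WT hearts for 19 members and below it for 8, a complete separation that 41.6% of all genes had (22.3% above, 19.3% below). Once the trends were removed, 13 members were above and 8 below, against 31.7% of all genes (16.1% above, 15.5% below). DESeq2 called 20 members higher and 10 lower, against 26.4% and 26% of all genes, 52.5% in either direction. In the authors' FPKM values, which are per length and were not rescaled, 25 members were higher and 2 lower by limma, against 47.2% and 6.09% of all genes, 53.3% in either direction. The 2 lower members there were Psma4 and Psme3. When FPKM was centred on the median gene, 21 were higher and 8 lower, against 25.4% and 28.4% of all genes, 53.9% in either direction. In FPKM the groups did not overlap for 24 members, 23 above and 1 below, against 45.6% of all genes (41.3% above, 4.23% below).

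**Figure D1:**
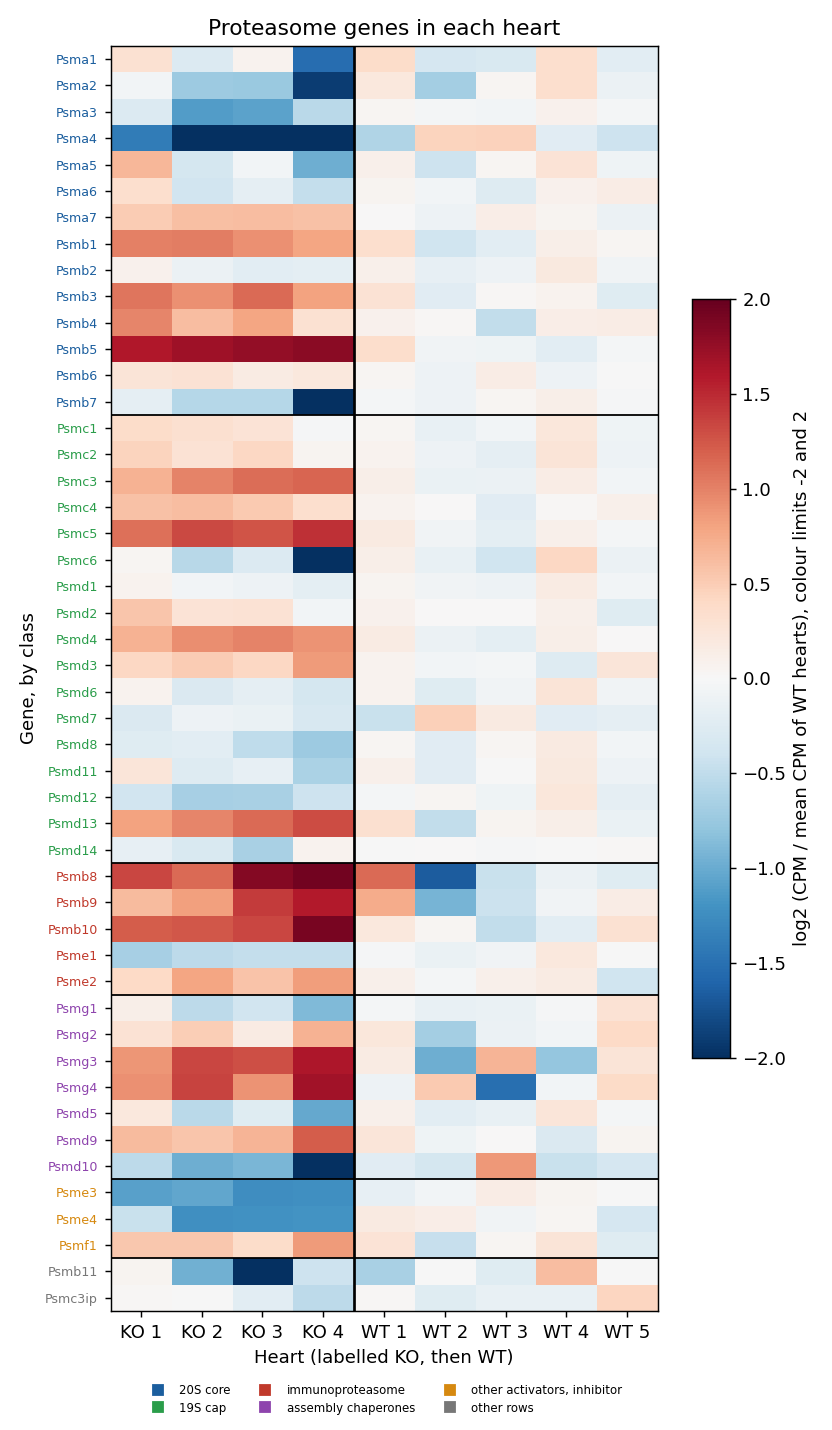
Expression of the 48 tested proteasome genes in each heart, grouped by class, as log2 of CPM over the gene's mean CPM in WT hearts (colour scale, values beyond 2 in either direction share the end colours). The 4 KO hearts are left of the 5 WT hearts, and the class blocks hold genes of both directions.

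The composition of the family differed by class. The 17 cap genes held 56.2% ± 1.99 of the family's reads in KO hearts (SD, n = 4) and 48.6% ± 0.753 in WT hearts (SD, n = 5), and the groups did not overlap. The 2 remaining activators and PI31 held 5.42% ± 0.727 in KO hearts and 10.8% ± 0.649 in WT hearts, again without overlap. Both orders held with GC and length trends removed, at 56.2% in KO and 49.1% in WT hearts for the cap and 6.62% in KO and 9.52% in WT hearts for the activators and PI31. The cap genes did not move as one: 6 were called higher, 2 lower and 9 were not called, against 26.2% and 25.2% of all genes. Psmc3, which shares exon bases with Slc39a13, had means of 179 CPM in KO hearts and 89.2 CPM in WT hearts. The part of each gene in the cap's share was not computed. The core's share was 28.3% ± 2.84 in KO hearts and 30.7% ± 0.722 in WT hearts, and the chaperones' share was 2.35% ± 0.234 in KO hearts and 2.13% ± 0.303 in WT hearts; both overlapped. The immunoproteasome genes took 7.65% ± 1.25 in KO hearts and 7.63% ± 0.405 in WT hearts, with overlap. After the trends were removed, their share was 6.66% in KO hearts, below all WT hearts, which averaged 8.67%. That lower share was carried by Psme1, with means of 59.8 CPM in KO hearts and 123 CPM in WT hearts after the trends were removed. The log2 fold changes of Psmb8, Psmb9, Psmb10 and Psme2 were positive in that fit, at 0.30 to 0.91.

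**Figure D2:**
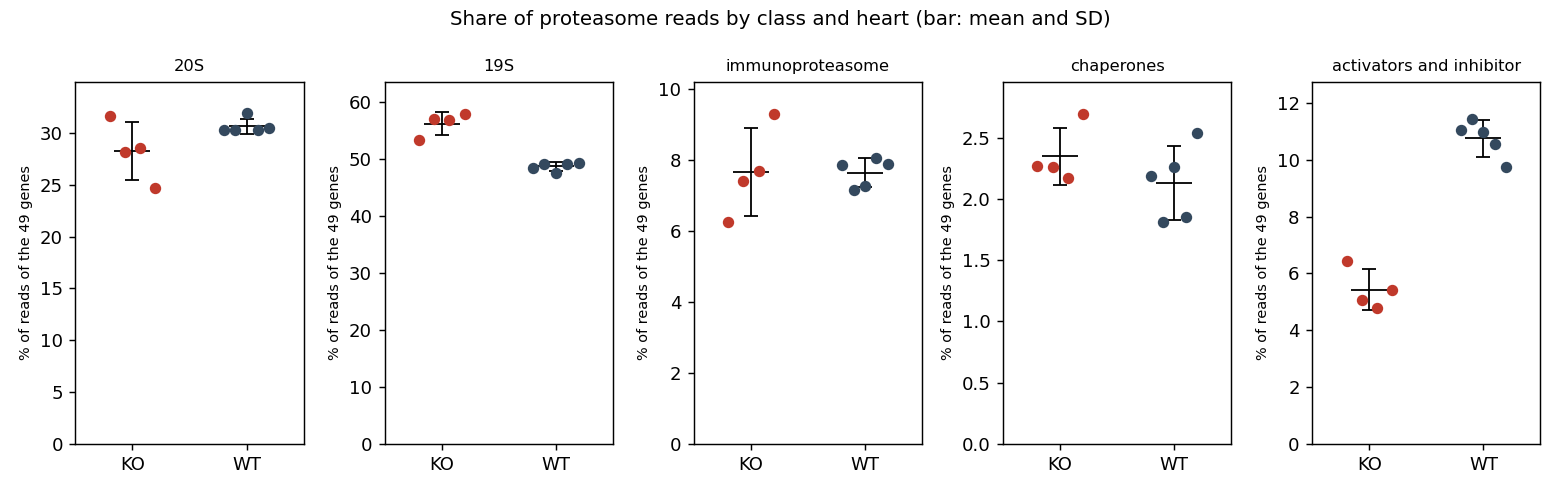
Share of the reads of the 49 genes (%) held by each class in each heart, with the mean and SD of the 4 KO and 5 WT hearts. The 19S panel has all KO points above the WT points, and the panel of activators and inhibitor has them all below.

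The constitutive catalytic subunits of the core did not move together. Psmb5, the chymotrypsin-like subunit (chr14:54614119-54618022 on GRCm38, minus strand), had 41.9, 45.0, 46.6 and 48.4 CPM in KO hearts, against 17.6, 13.2, 13.0, 11.9 and 13.5 CPM in WT hearts. Every KO heart lay well above every WT heart, and no other member had a larger fold increase in these counts, although Psmc5 did with the trends removed. It had a log2 fold change of 1.70 ± 0.14 (SE, adjusted p = 2.71e-06), and 1.05 with the trends removed (adjusted p = 2.21e-05). Psmb6, the caspase-like subunit (chr11:70525367-70527858, plus strand), had 88.5, 90.0, 82.5 and 85.9 CPM in KO hearts, against 76.1, 68.7, 82.0, 69.2 and 73.7 CPM in WT hearts. The KO hearts were just above the WT hearts, and the log2 fold change of 0.23 ± 0.11 missed the threshold (adjusted p = 0.085). With the trends removed its sign turned, to -0.41 (adjusted p = 0.00691), and the KO hearts were then all below the WT hearts. In FPKM, where limma called 47.2% of all genes higher, Psmb6 was called higher (0.81, adjusted p = 0.00398). The direction of its call thus depended on the processing. Psmb7, the trypsin-like subunit (chr2:38588036-38644087, minus strand), had 76.4, 58.1, 58.2 and 16.2 CPM in KO hearts, against 83.9, 80.1, 89.1, 93.3 and 85.1 CPM in WT hearts. All KO hearts were below the WT hearts, but KO4 stood far below the others. The log2 fold change of Psmb7 was -0.72 ± 0.28 (adjusted p = 0.0446), and -0.73 with the trends removed (adjusted p = 0.0384). The call was lost without KO2, KO3 or any single WT heart, with adjusted p up to 0.0729, while without KO4 the change was -0.42 (adjusted p = 0.0138).

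Because the ratio of genes within a heart does not depend on library scaling, the catalytic subunits were also set against each other. Psmb6 had 1.91 ± 0.170 reads per Psmb5 read in KO hearts (SD, n = 4), against 5.42 ± 0.731 in WT hearts (SD, n = 5). No KO and WT heart overlapped, with KO hearts at 2.11, 2.001, 1.77 and 1.77 and WT hearts at 4.33, 5.21, 6.30, 5.79 and 5.47. With the trends removed the ratios were 1.93 in KO hearts and 5.37 in WT hearts. Psmb7 had 1.18 ± 0.618 reads per Psmb5 read in KO hearts and 6.37 ± 1.11 in WT hearts, again without overlap. Per length, the 7 beta subunits spanned mean levels of 84.4 to 138 FPKM in KO hearts, a 1.63-fold range, and 23.2 to 102 FPKM in WT hearts, a 4.39-fold range. Psmb5 was the lowest of the 7 in WT hearts at 23.2 FPKM, whereas Psmb7 was the lowest in KO hearts at 84.4 FPKM. The rank of Psmb7 rests on KO4, at 24.2 FPKM. Without KO4, Psmb4 was the lowest in KO hearts at 95.6 FPKM, and the range was 1.499-fold. FPKM levels are compared here within a group, since over all genes the FPKM values had a median log2 difference of 0.44 between KO and WT hearts. GENCODE names pseudogenes of Psmb5, Psmb6 and Psmb7, and Psmb7 shares exon bases with Nek6, so reads from these copies may be counted with the genes.

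The promoters of Psmb5 and Psmb6 are shown here because, of the 11 core genes with a window in the table, these 2 hold an antioxidant response element (ARE), bound by factors of the NF-E2 family, including the proteasome regulator Nfe2l1. The sequences are from RefSeq (GRCm38.p6), run from 250 bases before to 50 bases after the annotated start, 5′ to 3′ on the gene's strand, and have the motif in capitals. The Psmb5 window is chr14:54617946-54618245 (minus strand), where the motif begins 47 bases before the start, and the Psmb6 window is chr11:70525107-70525406 (plus strand), where it begins 9 bases before the start.
Psmb5: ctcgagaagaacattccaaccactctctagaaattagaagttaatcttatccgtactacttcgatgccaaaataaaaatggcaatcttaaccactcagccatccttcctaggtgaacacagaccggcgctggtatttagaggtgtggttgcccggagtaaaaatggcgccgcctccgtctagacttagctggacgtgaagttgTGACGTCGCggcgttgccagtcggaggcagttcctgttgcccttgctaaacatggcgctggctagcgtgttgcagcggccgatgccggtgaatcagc
Psmb6: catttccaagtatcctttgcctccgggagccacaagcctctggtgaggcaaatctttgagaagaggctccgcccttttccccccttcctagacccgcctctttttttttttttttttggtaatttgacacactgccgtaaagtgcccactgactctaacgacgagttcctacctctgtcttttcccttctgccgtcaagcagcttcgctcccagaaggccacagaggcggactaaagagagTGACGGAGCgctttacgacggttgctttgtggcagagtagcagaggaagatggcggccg
The ARE was searched as TGACNNNGC on both strands. It occurred in 6 of the 41 members with a promoter in the table (14.6%), in Psmb5, Psmb6, Psmc6, Psmd9, Psmd12 and Psme4, against 14.0% of all 27025 genes there. Of these 6, Psmb5 and Psmd9 were called higher, Psmd12 and Psme4 lower, and Psmb6 and Psmc6 were not called. Over all genes, 26.2% were called higher and 25.2% lower. The CCAAT box, searched as CCAAT on both strands, occurred in 15 of the 41 (36.6%), against 41.1% of all genes. No promoter is shown for Psma8, Psmb1, Psmb2, Psmb7, Psmc3, Psmd3, Psmd7 and Psmg2.

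Of the 4 other beta subunits, which build the rings without a proteolytic site, 3 were higher. Psmb3 had 57.9, 51.9, 60.3 and 48.2 CPM in KO hearts, against 33.7, 23.6, 28.1, 28.9 and 23.3 CPM in WT hearts. This gave a log2 fold change of 0.97 ± 0.14 (adjusted p = 5.82e-05), and 0.48 with the trends removed (adjusted p = 0.00703). Psmb1 had 69.7, 70.3, 65.5 and 60.1 CPM in KO hearts, against 43.7, 26.4, 29.9, 37.6 and 35.6 CPM in WT hearts. There was no overlap of the groups for either gene. The log2 fold change of Psmb1 was 0.91 ± 0.14 (adjusted p = 0.000116), and 0.98 with the trends removed (adjusted p = 5.46e-05). Psmb4 was higher by 0.68 ± 0.16 (adjusted p = 0.0022), and by 0.41 with the trends removed (adjusted p = 0.0398). Psmb2 was not called at -0.11 (adjusted p = 0.457), and was lower by 0.34 on the log2 scale with the trends removed (adjusted p = 0.0144). Over the 7 beta subunits, 4 were higher and 1 lower, against 26.2% and 25.2% of all genes, with a median of 0.68. DESeq2 called 5 of them higher and 1 lower, against 26.4% and 26% of all genes. With the trends removed 4 were higher and 3 lower, against 18.6% and 19.5% of all genes.

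The alpha ring, which gates entry to the core, held 1 higher and 3 lower genes of 7, with a median log2 fold change of -0.23. Over all genes the shares were 26.2% and 25.2%. Psma4 (chr9:54950790-54958030, plus strand) had 33.2, 14.2, 12.9 and 13.0 CPM in KO hearts, against 57.2, 118, 120, 74.7 and 65.5 CPM in WT hearts. Its log2 fold change of -2.22 ± 0.30 (adjusted p = 4.96e-05) was the largest decrease of any member, and it was -1.94 with the trends removed (adjusted p = 0.00013). No KO and WT heart overlapped, although KO1 stood above the other KO hearts and WT2 and WT3, the 2 shallowest libraries, above the other WT hearts. Psma4 shares exon bases with AY074887, which these unstranded reads cannot separate from it. Psma7 went the other way, with 48.5, 51.7, 52.5 and 51.0 CPM in KO hearts, against 34.4, 31.9, 37.3, 35.4 and 31.3 CPM in WT hearts. On the log2 scale the change was 0.58 ± 0.11 (adjusted p = 0.000561), and 0.39 with the trends removed (adjusted p = 0.0057). Psma4 and Psma7 are neighbours in the ring, and their RNA moved in opposite directions.

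Psma3 and Psma2 were called lower in the first fit and not after the trends were removed. Psma3 had 17.4, 9.70, 10.01 and 14.5 CPM in KO hearts, against 21.6, 20.5, 20.1, 22.2 and 20.4 CPM in WT hearts, without overlap (log2 fold change -0.71 ± 0.17, adjusted p = 0.00364). With the trends removed the difference was -0.02 (adjusted p = 0.937). Psma2 had 29.9, 18.8, 18.6 and 8.30 CPM in KO hearts, against 35.9, 19.4, 32.0, 39.2 and 28.7 CPM in WT hearts, and the groups overlapped. Its log2 fold change of -0.73 ± 0.27 (adjusted p = 0.0344) became -0.01 with the trends removed (adjusted p = 0.975), and the call was lost without KO2, KO3, KO4, WT1, WT3 or WT4, with a change between -1.05 and -0.49 and adjusted p up to 0.0752. These are the alpha genes of lowest GC content, 40.8% for Psma3 and 39.4% for Psma2. Psma1, Psma5 and Psma6 were called in neither fit, with log2 fold changes of -0.23, -0.07 and -0.15. After both trends were removed, Psma1 differed by 0.12 (adjusted p = 0.722), Psma5 by -0.09 (adjusted p = 0.79) and Psma6 by under 0.01 (adjusted p = 0.998), although in the first fit without KO1 Psma6 was lower (-0.35, adjusted p = 0.0438).

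**Figure D3:**
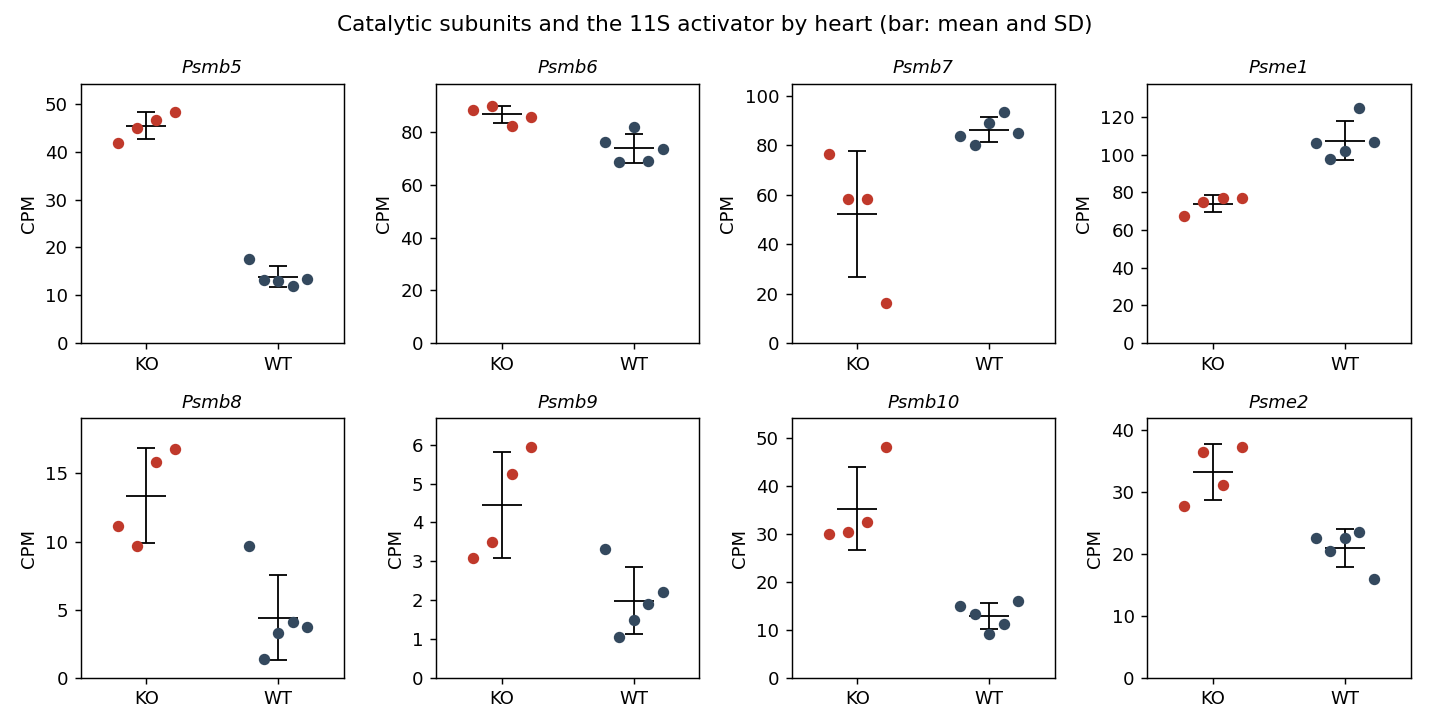
CPM of the constitutive catalytic subunits (Psmb5, Psmb6, Psmb7), their immunoproteasome replacements (Psmb8, Psmb9, Psmb10) and the 11S activator (Psme1, Psme2) in each of the 4 KO and 5 WT hearts, with the mean and SD. Psmb5, Psmb6, Psmb8, Psmb10 and Psme2 have all KO points above the WT points, by a small margin for Psmb6 and Psmb8, Psme1 and Psmb7 have them below, and KO4 is the low point of Psmb7.

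Among the immunoproteasome genes, 4 of 5 were higher and 1 was lower, against 26.2% and 25.2% of all genes, with a median log2 fold change of 0.97. Once the trends were removed, 2 were higher and 1 lower, against 18.6% and 19.5% of all genes, with a median of 0.51. Psmb10, which replaces Psmb7 (chr8:105935735-105938444, minus strand), had 29.9, 30.4, 32.5 and 48.1 CPM in KO hearts, against 14.97, 13.2, 9.18, 11.1 and 15.9 CPM in WT hearts. There was no overlap of the groups. The log2 fold change was 1.43 ± 0.18 (adjusted p = 3.18e-05), and 0.85 with the trends removed (adjusted p = 0.000885). Psmb8, which replaces Psmb5 (chr17:34197721-34201454, plus strand), had 11.1, 9.70, 15.8 and 16.8 CPM in KO hearts, against 9.64, 1.39, 3.26, 4.07 and 3.71 CPM in WT hearts. WT1 lay just under the lowest KO heart, and the WT2 and WT3 values rest on 4 and 11 reads. The log2 fold change was 1.38 ± 0.32 (adjusted p = 0.00244), and 0.91 with the trends removed (adjusted p = 0.0258), where the groups overlapped. Psmb9, which replaces Psmb6 (chr17:34181987-34187764, minus strand), had 3.09, 3.49, 5.26 and 5.94 CPM in KO hearts, against 3.32, 1.04, 1.48, 1.90 and 2.21 CPM in WT hearts. The groups overlapped through WT1, and the WT2 and WT3 values rest on 3 and 5 reads. Its log2 fold change of 0.97 ± 0.29 (adjusted p = 0.0117) was 0.51 with the trends removed (adjusted p = 0.154), and Psmb9 shares exon bases with Tap1.

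Set against the subunit that each replaces, the immune subunits gave 3 different pictures. Psmb8 had 29.2 ± 6.30 reads per 100 Psmb5 reads in KO hearts (SD, n = 4) and 30.4 ± 16.2 in WT hearts (SD, n = 5), with overlap; both genes were higher in KO hearts. Psmb9 had 5.17 ± 1.73 reads per 100 Psmb6 reads in KO hearts and 2.68 ± 1.12 in WT hearts, also with overlap. Psmb10 had 39.1, 52.3, 55.9 and 296 reads per 100 Psmb7 reads in KO hearts, against 17.8, 16.5, 10.3, 11.9 and 18.7 in WT hearts, without overlap. The high value of KO4 combines its highest Psmb10 with its lowest Psmb7.

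The genes of the 11S activator, which form one mixed ring, moved in opposite directions. Psme1 (chr14:55578123-55581529, plus strand) had 67.6, 74.8, 77.2 and 76.9 CPM in KO hearts, against 106, 97.8, 102, 125 and 107 CPM in WT hearts. All KO hearts were below the WT hearts, and the log2 fold change was -0.54 ± 0.11 (adjusted p = 0.00128), and -1.04 after removing both trends (adjusted p = 1.47e-05). Psme2 (chr14:55587441-55591113, minus strand) had 27.7, 36.4, 31.1 and 37.3 CPM in KO hearts, against 22.6, 20.5, 22.5, 23.5 and 15.9 CPM in WT hearts. All KO hearts were above the WT hearts, and the log2 fold change was 0.66 ± 0.15 (adjusted p = 0.00176), and 0.30 after removing both trends (adjusted p = 0.0833). There were 2.44, 2.05, 2.48 and 2.06 Psme1 reads per Psme2 read in KO hearts, against 4.72, 4.78, 4.53, 5.32 and 6.72 in WT hearts. The ratio was 2.26 ± 0.234 in KO hearts (SD, n = 4) and 5.21 ± 0.891 in WT hearts (SD, n = 5), and with the trends removed 2.15 in KO hearts and 5.45 in WT hearts. Psme1 shares exon bases with Emc9.

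The windows of Psmb8 and Psme1 are shown because each holds an interferon-linked motif, and these genes moved in opposite directions. The Psmb8 window, chr17:34197945-34198244 (plus strand), holds a gamma-activated site (GAS) that begins 97 bases before the start, and the Psme1 window, chr14:55578244-55578543 (plus strand), holds the reverse complement of an interferon-stimulated response element (ISRE) that begins 9 bases after it. Motifs are in capitals, and the source and extent are those of the windows above. Both windows lie inside the GENCODE spans given above for these genes. The RefSeq starts used here are thus downstream of the GENCODE gene starts.
Psmb8: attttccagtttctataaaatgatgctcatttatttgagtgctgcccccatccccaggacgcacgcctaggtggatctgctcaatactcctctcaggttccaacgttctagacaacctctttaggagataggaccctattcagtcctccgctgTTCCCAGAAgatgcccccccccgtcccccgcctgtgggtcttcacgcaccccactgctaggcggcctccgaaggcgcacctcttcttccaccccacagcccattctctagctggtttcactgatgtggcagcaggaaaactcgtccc
Psme1: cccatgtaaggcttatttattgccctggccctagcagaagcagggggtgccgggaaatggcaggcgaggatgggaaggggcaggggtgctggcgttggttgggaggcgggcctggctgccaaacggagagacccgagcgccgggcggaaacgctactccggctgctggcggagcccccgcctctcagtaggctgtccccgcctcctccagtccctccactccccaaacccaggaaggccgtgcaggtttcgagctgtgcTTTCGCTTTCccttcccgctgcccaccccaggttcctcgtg
The ISRE, searched on both strands as GAAA, any pair of bases and GAAA, occurred in 5 of the 41 members (12.2%), in Psmb3, Psmd4, Psmd9, Psme1 and Psmg4, against 3.99% of all genes of the table. Of these 5, Psme1 was lower and the other members were called higher, against 25.2% of all genes called lower and 26.2% higher. With the trends removed, Psmg4 was not called (0.56, adjusted p = 0.117). The part of the motif in these calls was not tested. The GAS, searched as TTCNNNGAA on both strands, occurred in 3 of the 41 (7.32%), in Psmb8, Psmd2 and Psmg1, against 9.55% of all genes. Psmb8 was called higher in both fits, Psmd2 was called in neither, and Psmg1 was called lower only with the trends removed.

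Genes of antigen processing and the interferon response outside the family were split. Of 14 such genes, 4 were higher and 4 lower, against 26.2% and 25.2% of all genes, with a median log2 fold change near 0. The higher count was 2 without KO3, KO4, WT3, WT4 or WT5. With the trends removed 2 were higher and 1 lower, against 18.6% and 19.5% of all genes. Tap2, a subunit of the peptide transporter, was higher by 1.21 ± 0.22 (adjusted p = 0.000366; 0.68 with the trends removed, adjusted p = 0.00723). Irf1, an interferon-induced transcription factor, was higher by 0.84 ± 0.15 (adjusted p = 0.000432; 0.61 with the trends removed, adjusted p = 0.00303). B2m, the light chain of MHC class I, had 89.3 to 94.6 CPM in KO hearts and 126 to 292 CPM in WT hearts (log2 fold change -1.17 ± 0.22, adjusted p = 0.000478; -0.67 with the trends removed, adjusted p = 0.0278). Irgm1, an interferon-induced GTPase, was lower (-0.66 ± 0.16, adjusted p = 0.00292) but not called with the trends removed (-0.29, adjusted p = 0.17).

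The 19S cap had 6 higher and 2 lower genes of 17 in each fit, and the higher genes were not all the same. Over all genes the shares were 26.2% and 25.2% in the first fit and 18.6% and 19.5% with the trends removed. The medians were 0.24 and, with the trends removed, 0.22. Of the 6 ATPases that unfold substrates, 3 were higher and none lower, and with the trends removed 4 were higher and none lower. Psmc5 (chr11:106256154-106263120, plus strand) had 67.5, 78.8, 75.4 and 86.8 CPM in KO hearts, against 35.5, 30.2, 27.5, 33.7 and 30.8 CPM in WT hearts. Every KO heart was above every WT heart, and the log2 fold change was 1.28 ± 0.12 (adjusted p = 5e-06), and 1.10 after removing both trends (adjusted p = 1.68e-05). Psmc3 had 144, 178, 194 and 200.5 CPM in KO hearts, against 96.5, 81.5, 82.3, 99.3 and 86.2 CPM in WT hearts. It too was separated, with a log2 fold change of 1.001 ± 0.13 (adjusted p = 2.95e-05) and of 0.57 with the trends removed (adjusted p = 0.000806). Psmc4 was higher by 0.51 ± 0.12 (adjusted p = 0.00205) but by 0.18 with the trends removed (adjusted p = 0.192). Psmc1 and Psmc2 were called with the trends removed, at 0.26 (adjusted p = 0.0422) and 0.40 (adjusted p = 0.00676), and not before, at 0.24 and 0.30 (adjusted p = 0.119 and 0.0599). Without KO4 both passed without the correction, Psmc1 at 0.32 (adjusted p = 0.0369) and Psmc2 at 0.38 (adjusted p = 0.0214), and Psmc2 also did without WT4 (0.35, adjusted p = 0.04). Psmc6 had 26.1, 17.2, 21.0 and 5.15 CPM in KO hearts, against 27.4, 22.9, 19.2, 33.9 and 23.4 CPM in WT hearts, with overlap (log2 fold change -0.56, adjusted p = 0.141). Without KO1 it was lower (-0.83, adjusted p = 0.0403), but with the trends removed its sign turned (0.25, adjusted p = 0.538).

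Of the 3 base subunits without ATPase activity, the ubiquitin receptor Psmd4 was called. It had 79.4, 93.7, 97.8 and 91.8 CPM in KO hearts, against 55.1, 45.1, 42.6, 53.0 and 49.5 CPM in WT hearts. The groups did not overlap, and the log2 fold change was 0.88 ± 0.12 (adjusted p = 4.87e-05), and 0.50 after removing both trends (adjusted p = 0.00134). The scaffold subunits Psmd1 and Psmd2 differed by -0.07 and 0.28 (adjusted p = 0.601 and 0.0881), and by 0.22 and 0.21 with the trends removed (adjusted p = 0.0758 and 0.181); without KO4 Psmd2 was higher by 0.38 (adjusted p = 0.0203). In the lid, which carries the deubiquitinating enzyme, 2 of 8 genes were higher and 2 lower, with a median of -0.19. These counts were close to the 26.2% and 25.2% of all genes. With the trends removed 1 was higher and 2 lower, against 18.6% and 19.5% of all genes. Psmd13 was higher by 1.04 ± 0.16 (adjusted p = 0.000103), and by 0.75 with the trends removed (adjusted p = 0.000784). Psmd3 was higher by 0.56 ± 0.13 (adjusted p = 0.00284), but its sign turned with the trends removed (-0.07, adjusted p = 0.657). Psmd12 had 40.4, 33.1, 33.5 and 39.4 CPM in KO hearts, against 51.1, 54.1, 49.2, 61.7 and 46.2 CPM in WT hearts, without overlap. It had a log2 fold change of -0.52 ± 0.13 (adjusted p = 0.00311), and -0.34 with the trends removed (adjusted p = 0.0339). Psmd8 had 57.4, 58.6, 47.9 and 40.9 CPM in KO hearts, against 69.9, 57.9, 69.6, 77.3 and 65.3 CPM in WT hearts, with KO2 just above WT2. Its log2 fold change of -0.41 ± 0.13 (adjusted p = 0.0177; -0.63 with the trends removed, adjusted p = 0.00111) was between -0.48 and -0.32 when single hearts were left out, and its call was lost without KO3 or KO4, with adjusted p up to 0.0592. The deubiquitinating subunit Psmd14 differed by -0.24 (adjusted p = 0.188) and, with the trends removed, by 0.27 (adjusted p = 0.224), and Psmd6, Psmd7 and Psmd11 were called in neither fit.

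**Figure D4:**
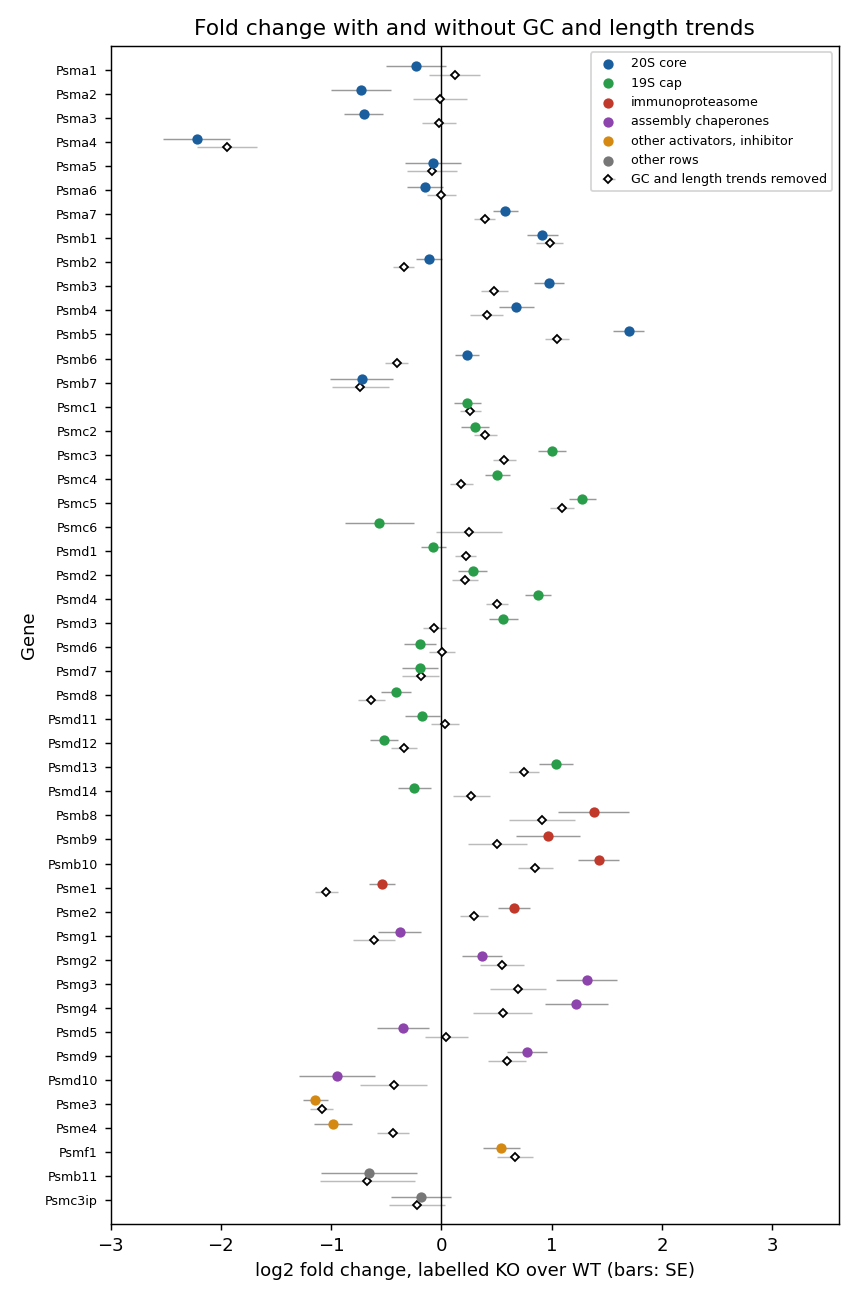
Log2 fold change (KO over WT) of the 48 tested proteasome genes by class, with SE, from the TMM-scaled counts (filled circles) and with GC and length trends removed (open diamonds). Psmb5 and Psma4 lie at the ends of the range of the circles, and 9 genes, among them Psmb6 and Psmd3, have their symbols on opposite sides of 0.

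The assembly chaperones help build the core and the base and leave the finished particle. Of 7, 3 were higher and 1 lower in each fit, but these were not all the same genes. The shares over all genes were the same as for the cap. The medians were 0.37 and, with the trends removed, 0.55. Psmg3, a core chaperone, had 3.75, 5.18, 5.00 and 6.30 CPM in KO hearts, against 2.29, 1.04, 3.26, 1.19 and 2.44 CPM in WT hearts. This gave a log2 fold change of 1.32 ± 0.28 (adjusted p = 0.00118), and 0.70 with the trends removed (adjusted p = 0.0442). Psmg4, the partner of Psmg3, had 3.18, 4.28, 3.13 and 5.37 CPM in KO hearts, against 1.57, 2.43, 0.592, 1.61 and 2.21 CPM in WT hearts. Neither gene's groups overlapped; the log2 fold change of Psmg4 was 1.22 ± 0.28 (adjusted p = 0.0024), and 0.56 with the trends removed (adjusted p = 0.117). Psmd9, a chaperone of the base, had 11.4, 10.8, 11.7 and 17.0 CPM in KO hearts, against 8.70, 6.94, 7.40, 6.04 and 7.66 CPM in WT hearts. It was higher by 0.78 ± 0.18 (adjusted p = 0.0023), and by 0.59 with the trends removed (adjusted p = 0.0147). Psmd10, gankyrin, another base chaperone, had 3.37, 2.47, 2.58 and 0.859 CPM in KO hearts, against 4.17, 3.81, 8.88, 3.58 and 3.83 CPM in WT hearts. The groups did not overlap, but the log2 fold change of -0.95 ± 0.34 (adjusted p = 0.0306) was -0.43 with the trends removed (adjusted p = 0.285). Its call was lost without KO2, KO3, KO4 or WT3, with a change between -1.18 and -0.68 and adjusted p up to 0.0726. Psmg1 and Psmg2, which work as a pair on the alpha ring, were not called at -0.38 and 0.37 (adjusted p = 0.117 and 0.109), and with the trends removed Psmg1 was lower (-0.61, adjusted p = 0.0208) and Psmg2 higher (0.55, adjusted p = 0.04). Psmd5, a base chaperone, differed by -0.35 (adjusted p = 0.22), and by 0.05 with the trends removed (adjusted p = 0.881). Without KO1, Psmg1 (-0.59, adjusted p = 0.0135) and Psmd5 (-0.59, adjusted p = 0.0371) were lower.

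In the counts, the alternative activators were lower and the inhibitor was higher. Psme3, which forms the nuclear 11S activator (chr11:101316213-101323537, plus strand), had 32.1, 33.1, 28.9 and 29.3 CPM in KO hearts, against 60.8, 65.6, 75.8, 71.2 and 67.5 CPM in WT hearts. Both groups were tight and lay far apart. On the log2 scale the change was -1.14 ± 0.12 (adjusted p = 6.88e-06), and -1.08 with the trends removed (adjusted p = 1.34e-05). Psme4, the activator PA200 (chr11:30771726-30880361, plus strand), had 92.8, 54.1, 54.7 and 55.6 CPM in KO hearts, against 144, 139, 120.5, 130.2 and 100.3 CPM in WT hearts. KO1 was the KO heart nearest to the WT hearts, and the log2 fold change was -0.98 ± 0.17 (adjusted p = 0.000329), and -0.44 after removing both trends (adjusted p = 0.0286), where the groups overlapped. Psmf1, the inhibitor PI31, had 18.8, 18.8, 16.8 and 23.4 CPM in KO hearts, against 15.7, 9.37, 13.3, 15.5 and 10.9 CPM in WT hearts. The groups did not overlap, and the log2 fold change was 0.54 ± 0.17 (adjusted p = 0.0132), and 0.67 after removing both trends (adjusted p = 0.00565). In FPKM, limma called 47.2% of all genes higher and 6.09% lower. There Psme3 was lower (-0.53, adjusted p = 0.0229), Psme4 was not called (-0.39, adjusted p = 0.201) and Psmf1 was higher (0.96, adjusted p = 0.00418). The FPKM of the groups overlapped for Psme3 and Psme4.

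The tissue-restricted rows were near the limit of detection. Psma8 had 5, 5, 7 and 9 reads in KO hearts and 11, 1, 0, 3 and 2 reads in WT hearts, and was not tested. Psmb11 had 5 to 23 reads in KO hearts and 3 to 23 reads in WT hearts (adjusted p = 0.217), and Psmc3ip had 16 to 35 reads in KO hearts and 4 to 37 reads in WT hearts (adjusted p = 0.581).

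Fold change followed GC content within the family too. Over the 48 members, which share the same 9 libraries, Spearman's rho between GC content and log2 fold change was 0.73, against 0.61 over all genes with a GC value. With the trends removed it was 0.38 over the members and 0.01 over all genes. The members called higher had a median GC content of 53.8% (48.8 to 58.3%), and those called lower 46.5% (39.4 to 54.9%). Psme1, at 54.9%, and Psmb6, at 55.8%, were GC-rich members that were called higher in neither of these 2 fits of the counts. Psmb6 was called higher in FPKM. The part of base composition in any single member's difference was not tested beyond the second fit.

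**Figure D5:**
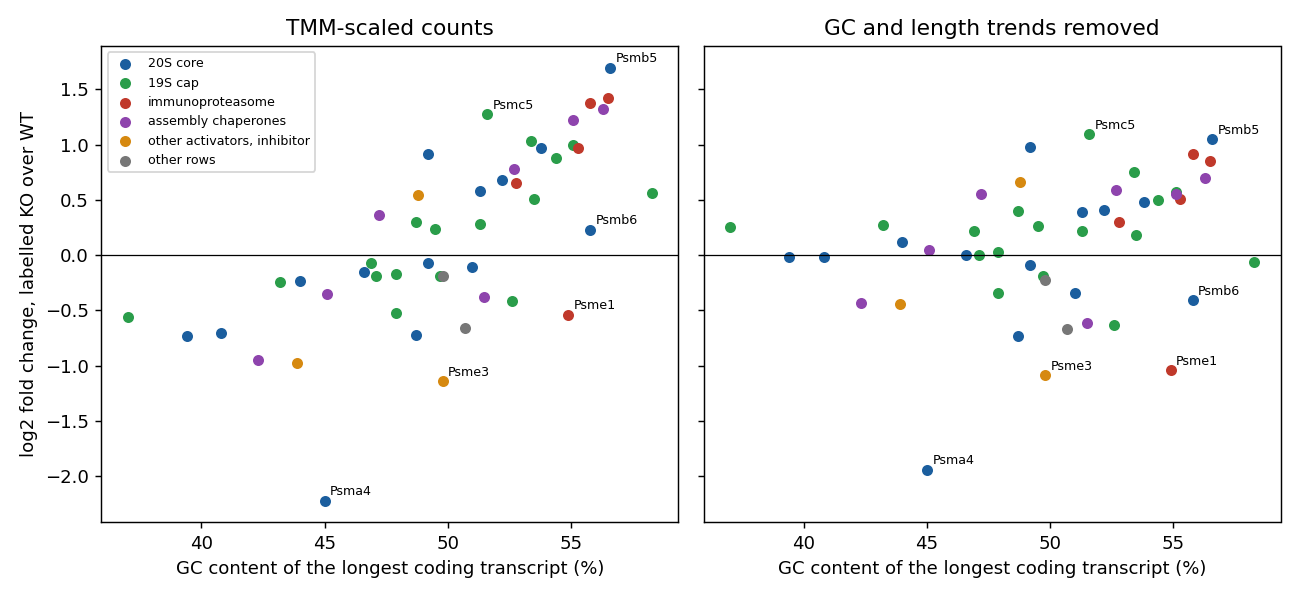
Log2 fold change (KO over WT) against the GC content (%) of the longest coding transcript for the 48 tested proteasome genes, coloured by class, from TMM-scaled counts (left) and with GC and length trends removed (right). The upward slope is steeper on the left, where rho is 0.73, than on the right, where it is 0.38, and Psma4, Psme1 and Psme3 remain low on both sides.

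KO4 departed from the other KO hearts for some members. Its level was under 0.5 times the mean of the other 3 KO hearts for 6 of 48 members (12.5%), against 4.56% of all 12640 genes tested. These members, picked after their values were seen, were Psma1, Psma2, Psma5, Psmb7, Psmc6 and Psmd10, at 0.241 to 0.456 times. After the trends were removed, 5 members (10.4%) were under this level, and the share over all genes was not computed for that setting. Before that step, KO4 was the lowest KO heart for 22 members (45.8%) and the highest for 15 (31.2%). The shares over all genes were not computed for these counts either, so they are not a trait of the family. KO4 was also the heart with the steepest GC trend relative to the mean of all hearts, at 0.65. The part of that trend in these values was not tested. Without KO4, 22 members were higher and 7 lower, against 23.2% and 22.7% of all genes, 45.9% in either direction.

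Of 27 measured proteasome partners outside the family, among them ubiquitin genes, shuttle proteins, deubiquitinating enzymes and regulators, 6 were higher and 11 lower, against 26.2% and 25.2% of all genes, with a median log2 fold change of -0.17. Once the trends were removed, 5 were higher and 6 lower, close to the shares over all genes of 18.6% and 19.5%. Ubb, a polyubiquitin gene, had 41.5, 55.9, 59.3 and 64.6 CPM in KO hearts, against 29.1, 17.0, 18.7, 26.8 and 24.3 CPM in WT hearts (log2 fold change 1.21 ± 0.17, adjusted p = 5.63e-05; 0.84 with the trends removed, adjusted p = 0.000567). Txnl1, a thioredoxin-like protein bound to the cap, was lower (-0.96 ± 0.15, adjusted p = 0.000159), and not called with the trends removed (-0.18, adjusted p = 0.351).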

How the data were processed

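The authors deposited read counts per gene for 9 hearts, and a second table of FPKM values made by the authors. The submitters' processing notes list mm10, Cufflinks 2.1, HTSeq, TopHat2 2.0.10, TopHat, Bowtie2, edgeR and DESeq, with no role or order given. Annotation and strand setting were not stated, and per the labels the libraries do not keep strand. Counts were tested with edgeR 4.0.16 in R 4.3.3 (TMM, default expression filter of 10 reads and 15 in total, quasi-likelihood F test, threshold 0.05). In a second fit, lowess trends (span 0.3) with GC content and transcript length were removed per heart as offsets. The trends were fitted to log2 expression relative to each gene's mean over all hearts. GC values covered 99.3% of tested genes. FPKM values were tested with limma 3.58.1 on log2(FPKM + 1), keeping mean values of 0.5 or more. Alternatives included DESeq2 1.42.0. The scripts were tested on simulated data. The members and lists were chosen with earlier results of these data known. Values in every heart are given for the catalytic subunits and the genes of the 11S activator, and for the 3 called genes of smallest p per direction in each other class; up to 4 called genes of smallest p are named per related list. Replicate numbers did not pair the hearts (correlations of -0.26 to 0.04). The targeted gene and some related genes that the naming rule would give are not reported here. Each direction rests on the labels. Coordinates and overlaps are from GENCODE vM21 (GRCm38), by which 14 of the 49 members share exon bases with another gene.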

Additional observations from a re-analysis of the deposited data

Results flagged for a closer look

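Of 96 groups of hearts tested over the 48 members, 9 held a heart far from the others by Dixon's criterion, which chance meets in about 1 of 20 groups. In KO hearts, Psma4 was 33.2 CPM in KO1 against 12.9 to 14.2 CPM in the other KO hearts, and Psme4 was 92.8 CPM in KO1 against 54.1 to 55.6 CPM. Psmb10 was 48.1 CPM in KO4 against 29.9 to 32.5 CPM, and Psmd9 was 17.0 CPM in KO4 against 10.8 to 11.7 CPM. In WT hearts, Psmb5 was 17.6 CPM in WT1 against 11.9 to 13.5 CPM in the other WT hearts. Psmb4 was 23.4 CPM in WT3 against 33.3 to 36.6 CPM, and Psmd10 was 8.88 CPM in WT3 against 3.58 to 4.17 CPM. Psmd2 was 87.8 CPM in WT5 against 104 to 111 CPM, and Psmg1 was 12.3 CPM in WT5 against 9.02 to 9.83 CPM.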

How the results depend on the processing

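The 19 higher and 10 lower calls had the same counts with DESeq2's size factors in edgeR (RLE), with no expression filter, at a mean CPM of 1 or more, and without mitochondrial genes and Rn45s; DESeq2 gave 20 higher and 10 lower. Leaving out each heart gave 19 to 22 higher and 6 to 14 lower members: 5 higher and 2 to 5 lower in the core, 6 to 9 higher and 1 to 3 lower in the cap, 4 higher and 1 lower in the immunoproteasome, 3 higher and 0 to 3 lower among the chaperones, and 7 to 12 higher and 13 to 17 lower among related genes (10 and 15 with all hearts). Over the whole transcriptome, these fits called 5594 to 6752 genes in either direction, against 6503 with all hearts. In the fits with the trends removed, chosen for this after seeing the data, it gave 13 to 16 higher and 5 to 9 lower members. With the trends removed, 2 immunoproteasome genes were higher and 7 related genes lower; the sign turned for 9 of 48 members, of which Psmb6 (-0.41) and Psmd3 (-0.066) were called in either fit. A replicate block, whose numbers do not pair the hearts, gave 19 higher and 9 lower members and 1 lower cap gene. It called 5030 of all 12640 genes in either direction, against 6503 without the block. The replicate block with GC and length correction gave 12 higher and 7 lower members, 3 higher core, 1 lower cap, 2 higher immunoproteasome and 0 lower chaperone genes, with 6 higher and 7 lower related genes, and Psmb6 at -0.40. That fit called 3389 of all 12551 genes in either direction, against 4782 with the correction alone. Without the 2 shallowest WT hearts, 0 chaperones were lower. In FPKM, where limma called 47.2% of all genes higher and 6.09% lower, 25 members were higher and 2 lower: 1 lower in the core, 10 higher and 0 lower in the cap, 0 lower in the immunoproteasome and 0 among the chaperones, with 19 higher and 1 lower related genes. The sign turned there for 14 members, of which Psmd7 (0.41), Psmd8 (0.17) and Psmd12 (0.070) were called in either fit. With FPKM centred on the median gene, 8 members were lower and 21 higher. The cause of these changes was not tested. Depth limits the low members: WT2 and WT3 had 5396 and 6444 proteasome reads.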

Other observations

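The shallowest libraries, WT2 and WT3, had the highest levels of 2 members. Psma4 was 118 and 120 CPM there, against 57.2 to 74.7 CPM in the other WT hearts. Psmd7, a subunit of the lid, was 124 and 100.1 CPM there, against 65.2 to 77.8 CPM in the other WT hearts and 70.9 to 82.1 CPM in KO hearts. Levels per length within the cap were highest for the ATPase gene Psmc3 in both groups, at a mean of 151 FPKM in KO hearts and 51.9 FPKM in WT hearts, and lowest for Psmd14, at 12.7 FPKM in KO hearts and 10.1 FPKM in WT hearts.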
